A study of Drosophila melanogaster with 4 samples.

Results

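The small heat shock protein genes of Drosophila melanogaster were followed in RNA of adult testes, in 2 libraries labelled as Su(var)3-9 mutant and 2 wild-type libraries. The members were chosen by name: Hsp22, Hsp23, Hsp26, Hsp27, Hsp67Ba, Hsp67Bb, Hsp67Bc and l(2)efl, 8 of the 16510 gene names in the deposited tables. Each library held polyadenylated RNA of 50 testes from males 3 days old kept at 23 °C, and the series calls the replicates biological. Su(var)3-9 is a methyltransferase of histone H3 in heterochromatin; its mutant allele and the strain background were not among the labels. The values are FPKM, fragment numbers divided by transcript length and by the mapped fragments of the library, so that levels of different genes are given per length.

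Small heat shock proteins are chaperones that work without ATP. They carry an alpha-crystallin domain, assemble into oligomers and hold unfolding proteins until Hsp70 machines can refold them. Most genes of the family lie side by side at cytological position 67B. Heat induces them through heat shock factor (Hsf), the steroid hormone ecdysone induces several during development, and some are made in the gonads without any stress. Because whole testes were used, fewer cells of a type and less RNA per cell cannot be told apart.

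The libraries differed before any gene of the family was read. Read back from the deposited 95% intervals, the estimated fragment totals were 1446647 and 1468278 for the mutant-labelled libraries, against 3207719 and 3366747 for the wild type, so depth and genotype cannot be told apart. These totals are rough, as they take in rows with several start identifiers, whose estimates were not checked. Su(var)3-9 itself was listed at 0 and 7.83 FPKM in the mutant-labelled libraries, against 7.93 and 9.74 FPKM in the wild-type libraries, so by this gene mutant replicate 2 looked like the wild type, and directions below are between libraries as labelled. Of 10 germline markers of the testis, from bam to Mst84Dc, all were above 0 in every library, and their summed level was 33187 and 31141 FPKM in the mutant-labelled libraries, against 18382 and 16905 FPKM in the wild-type libraries. Mst84Dc, Mst87F and ocn made up most of that sum, and of the list 3 genes were called higher, 1 (bol) was called lower and 6 did not pass (limma, adjusted p under 0.05 over all genes); the fold changes of vas, aly and dj were also below 0. All 8 muscle sheath markers were detected in every library, with sums of 213 and 270 FPKM in the mutant-labelled libraries, against 219 and 213 FPKM in the wild type, and so were all 6 cyst cell markers, with sums of 26.7 and 22.8 FPKM in the mutant-labelled libraries, against 29.0 and 28.1 FPKM in the wild type. The 10 accessory gland markers summed to 9.50 and 43.6 FPKM in the mutant-labelled libraries, against 2635 and 5.69 FPKM in wild type replicates 1 and 2. Of these 10, 8 and 5 were listed at 0 in the mutant-labelled libraries, against 1 and 7 in the wild-type libraries. Of 6 fat body markers, 3 and 4 were listed at 0 in the mutant-labelled libraries, against 1 and 2 in the wild-type libraries, with sums of 10.5 and 14.1 FPKM in the mutant-labelled libraries, against 11.5 and 12.4 FPKM in the wild type. The part of these differences in the results was not tested.

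The 7 members at 67B (3L, 9371511 to 9385694, dm6) span 14184 bases. Hsp67Bc, Hsp26 and Hsp67Ba lie on the minus strand, and Hsp67Bb, Hsp22, Hsp23 and Hsp27 on the plus strand. Hsp67Bc, Hsp26, Hsp67Ba, Hsp23 and Hsp27 have no intron in the Ensembl models. The eighth member, l(2)efl, lies apart on 2R (23684651 to 23685543), has up to 3 exons, and falls wholly within the locus of St3 on the opposite strand, a gene listed at 0 in every library.

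The loci of the cluster are not all separate. Hsp22 is listed at 9373997 to 9374964, and all 968 bases of it lie within the locus of Hsp67Bb (9372722 to 9374964) on the same strand. The reference, which now calls Hsp67Bb CG4456, holds a long transcript of 1900 bases under both names. The short Hsp22 transcript of 968 bases lies entirely within the last exon of that long one. Fragments from this stretch could have been given to either gene, so the split between Hsp22 and Hsp67Bb is uncertain. Hsp67Ba shares 79.3% of its locus with the antisense RNA gene CR43481 on the opposite strand. Whether strand was used in the counting is not stated, so the fragments of Hsp67Ba and CR43481 cannot be told apart there either.

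**Figure D1:**
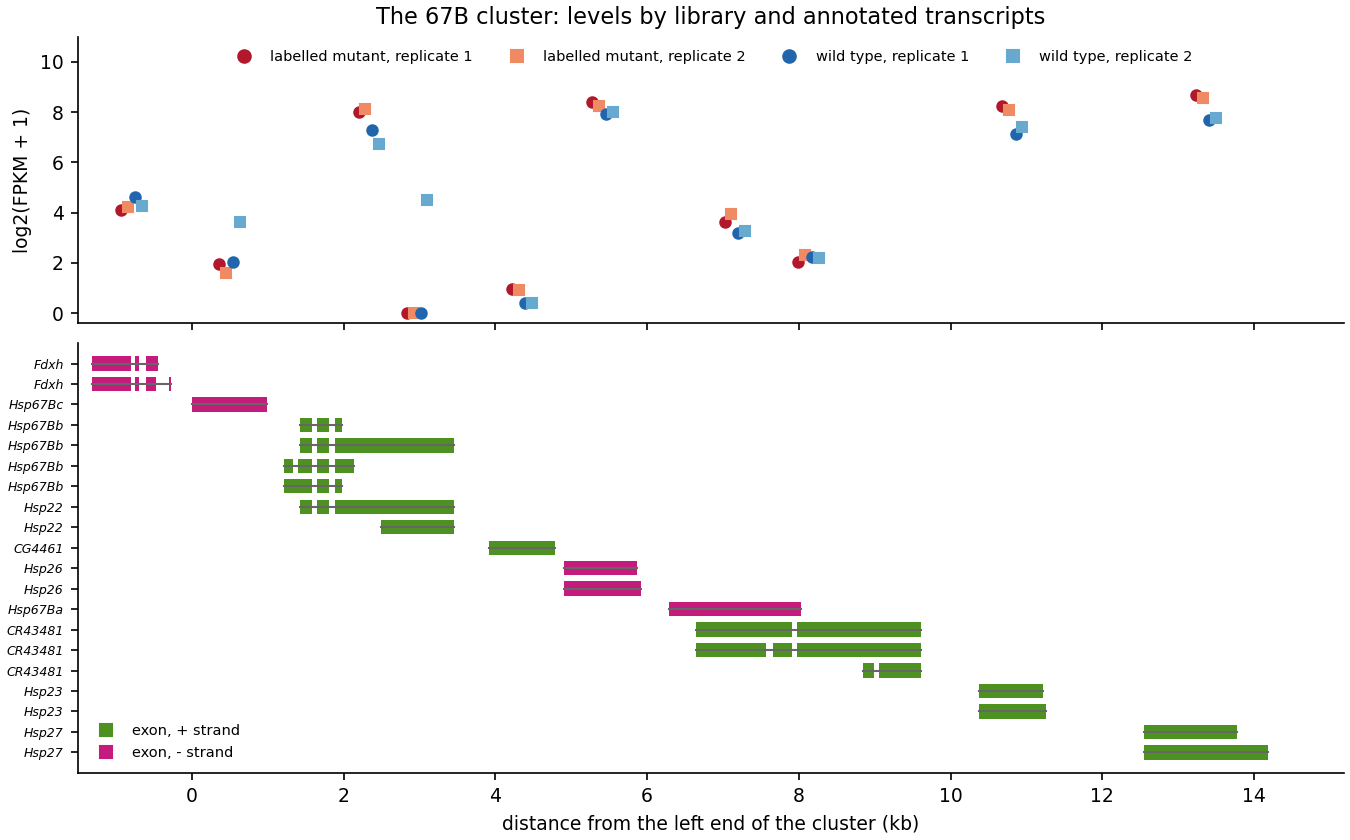
Levels by library (top, log2 of FPKM + 1, points at the middle of each listed locus) and the exons of the annotated transcripts (bottom), against the distance in kb from the left end of the cluster. Hsp22 sits inside the long transcript of Hsp67Bb, and its value in wild type replicate 2 is the only one of its 4 above 0.

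By level the members split into a group of 4 abundant genes and a group of 4 much lower ones. The abundant group includes Hsp67Bb, a member by name that has no alpha-crystallin domain. Hsp27, Hsp26, Hsp23 and Hsp67Bb made up 97.6% and 96.7% of the summed FPKM of the members in the mutant-labelled libraries, and 96.0% and 92.1% in the wild-type libraries. All 4 stood in the top 10% of the 10784 tested genes by level. In the mutant-labelled libraries the order by mean was Hsp27, Hsp26, Hsp23, Hsp67Bb, l(2)efl, Hsp67Ba, Hsp67Bc and Hsp22. In the wild-type libraries Hsp26 came before Hsp27, and Hsp22 before Hsp67Ba and Hsp67Bc. Hsp23 and Hsp67Bb overlapped in both genotypes, and in the wild type l(2)efl, Hsp22, Hsp67Ba and Hsp67Bc also overlapped with their neighbours in that order.

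Between genotypes, 3 of the 8 members rose in the mutant-labelled libraries and none fell (limma on log2 of FPKM + 1, adjusted over all 10784 genes, threshold 0.05). At an unadjusted p under 0.05 by limma the counts were 5 higher and 0 lower, beside 19.7% of all tested genes higher and 17.3% lower. At the adjusted threshold the background was 11.4% of all tested genes called higher and 8.67% called lower, 20.1% in all. That background depended on level: in that top 10% by level, where 3 of 4 members were called, 46.2% of genes were called higher, and their median log2 fold change was 0.33. None of the 4 members below it was called. All 8 members had the mean of 1 FPKM needed for the test, Hsp22 through a single library. The median log2 fold change of the members was 0.46, beside -0.01 over all genes. With any 1 library left out no member was called higher, as few or no genes of the whole table were then called higher (0 to 12). Those fits assume that the lone library of a genotype varies like the others.

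**Figure D2:**
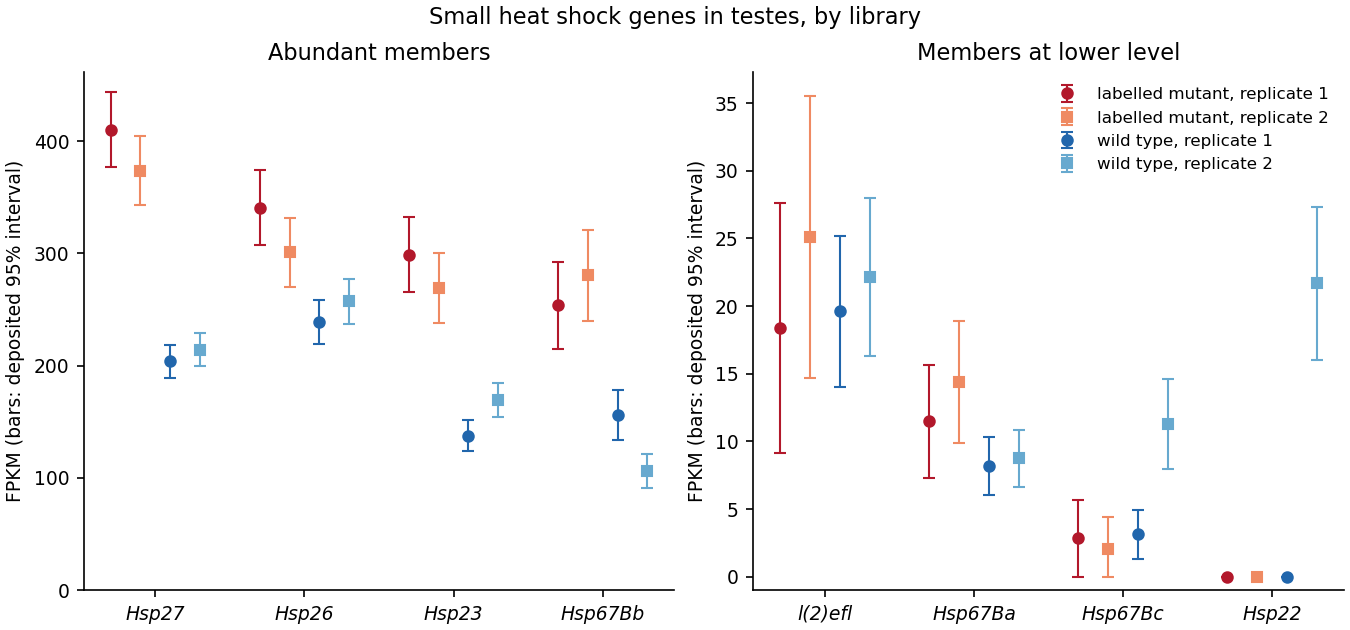
FPKM of the 8 members in each library (points) with the deposited 95% interval (bars), for the 4 abundant members (left) and the 4 lower ones (right). For Hsp27, Hsp23 and Hsp67Bb the intervals of the mutant-labelled libraries lie wholly above those of the wild type, and Hsp22 is above 0 in wild type replicate 2 alone.

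Hsp27 was the clearest of the abundant members. Hsp27, a small heat shock protein of the nucleus, was at 410 and 374 FPKM in the mutant-labelled libraries, against 204 and 214 FPKM in the wild-type libraries. Both mutant-labelled libraries were thus far above both wild-type libraries, which differed little from each other. The means were 392 ± 26.0 FPKM in the mutant-labelled libraries and 209 ± 7.20 FPKM in the wild type (SD, n = 2 each), a log2 fold change of 0.90 (SE 0.07, limma adjusted p = 0.00968). It kept its call under quantile normalization, at 0.60, and with the trend of fold change on transcript length removed, at 0.81. This member rested on 583 to 846 estimated fragments per library.

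Hsp23, a cytosolic member, was at 299 and 269 FPKM in the mutant-labelled libraries, against 138 and 170 FPKM in the wild-type libraries. The groups did not overlap, and the lowest bound of a 95% interval in the mutant-labelled libraries, 238 FPKM, was above the highest bound in the wild type, 185 FPKM. The means were 284 ± 21.1 FPKM in the mutant-labelled libraries and 154 ± 22.6 FPKM in the wild type (SD, n = 2 each), a log2 fold change of 0.89 (SE 0.13, limma adjusted p = 0.0222). The call was lost under quantile normalization (0.63, limma adjusted p = 0.0561), without the trend on length (0.62, limma adjusted p = 0.0629) and with eBayes without a trend on level (limma adjusted p = 0.0588).

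Hsp26, the other cytosolic member of this group, differed less. It was at 341 and 301 FPKM in the mutant-labelled libraries, against 239 and 257 FPKM in the wild-type libraries. The points did not overlap, but the 95% intervals of mutant replicate 2 and wild type replicate 2 did, with bounds of 270 and 277 FPKM. The log2 fold change of 0.37 (SE 0.09) did not pass (limma adjusted p = 0.0602). It passed with genes under a mean of 5 FPKM left out (limma adjusted p = 0.0475), and under quantile normalization the value was 0.02 and with the length trend removed 0.13.

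Because Hsp26 differed less than its neighbours, ratios within a library were taken, which no scaling of a whole library can move. The ratio of Hsp27 to Hsp26 was 1.20 and 1.24 in the mutant-labelled libraries, against 0.853 and 0.833 in the wild type. The ratio of Hsp23 to Hsp26 was 0.877 and 0.894 in the mutant-labelled libraries, against 0.576 and 0.659 in the wild type. Hsp27 to Hsp23, in contrast, was 1.37 and 1.39 in the mutant-labelled libraries, against 1.48 and 1.26 in the wild type, with overlap of the genotypes. The exact two-sided permutation p was 0.33 for the first 2 ratios and 1 for the third, and 0.33 is the smallest that 2 libraries against 2 allow. These were chosen among 5 ratios after the values were seen.

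Hsp67Bb, despite its name, has no alpha-crystallin domain and encodes a small protein of the rhodanese type. It was at 254 and 281 FPKM in the mutant-labelled libraries, against 156 and 106 FPKM in the wild-type libraries. The groups were apart, but the wild-type libraries also stood apart from each other, with intervals of 134 to 178 FPKM and of 91.1 to 121 FPKM. The log2 fold change was 1.05 (SE 0.21, limma adjusted p = 0.0399). It missed the threshold under quantile normalization (0.80, limma adjusted p = 0.0622), with eBayes without a trend on level (limma adjusted p = 0.0803) and with no filter on level (limma adjusted p = 0.0579), where more genes are tested. Since Hsp22 lies inside its locus, the values of both genes were also summed, an alternative added after the data were seen. The sum was 254 and 281 FPKM in the mutant-labelled libraries, against 156 and 128 FPKM in the wild-type libraries, with a log2 fold change of 0.91 (limma adjusted p = 0.0196). As each value was divided by the length of its own gene, this sum also depends on how the fragments were split.

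Of the 8 members, 3 had all deposited 95% intervals of the mutant-labelled libraries above those of the wild type: Hsp23, Hsp27 and Hsp67Bb. That held for 8.84% of the tested genes with a single row in the tables, and the reverse, which no member showed, for 9.32%. By the points alone, both mutant-labelled libraries were above both wild-type libraries for 5 members, with Hsp26 and Hsp67Ba in addition, and for 32.2% of all tested genes. Both were below for Hsp67Bc, and for 32.7% of all tested genes.

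**Figure D3:**
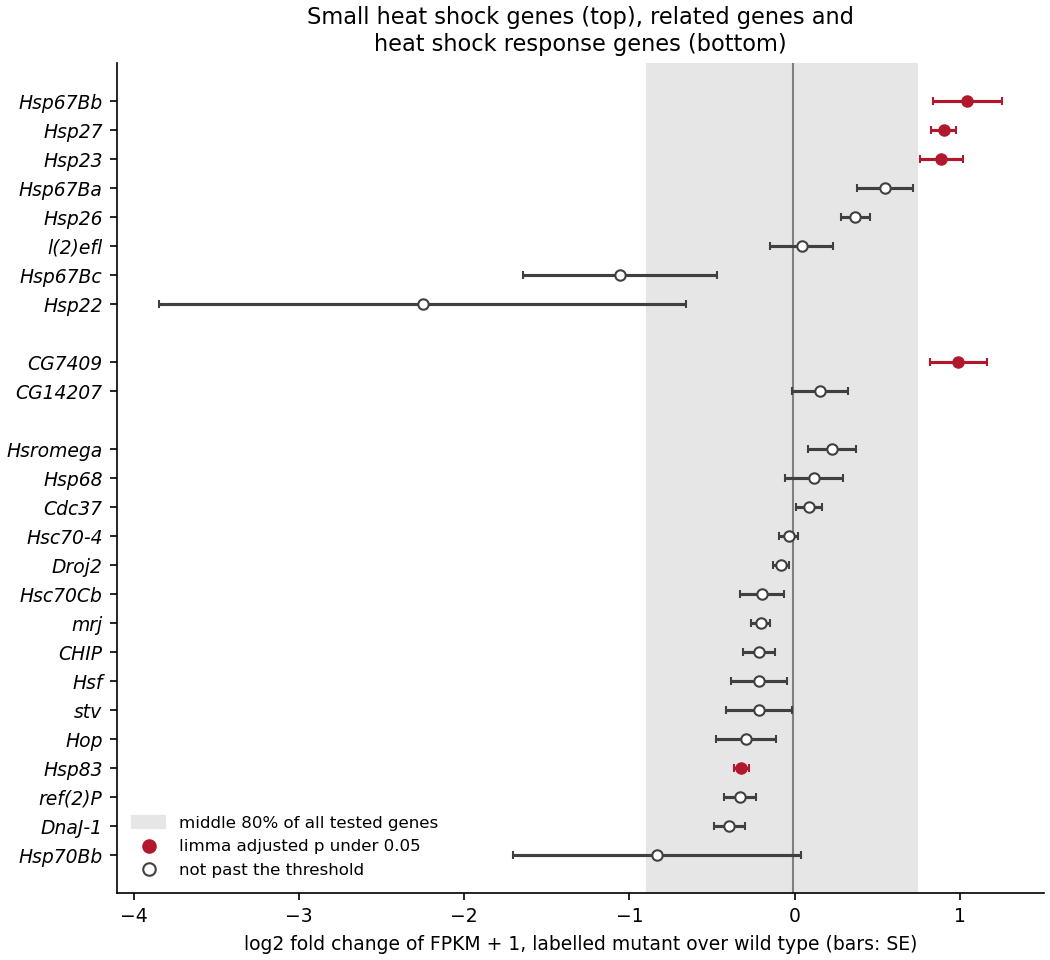
Log2 fold change of FPKM + 1 (x axis, labelled mutant over wild type, bars give the SE) of the members (top), of CG7409 and CG14207 (middle) and of the tested genes of the heat shock response list (bottom). Hsp67Bb, Hsp27, Hsp23 and CG7409 lie above the grey band that holds the middle 80% of all tested genes, while Hsp22 and Hsp67Bc lie below it with wide errors.

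The lower members gave no call. Hsp67Ba, an alpha-crystallin protein of the same cluster, was at 11.5 and 14.4 FPKM in the mutant-labelled libraries, against 8.18 and 8.76 FPKM in the wild-type libraries. The groups did not overlap by their points, while the intervals did. The log2 fold change of 0.55 (SE 0.17) did not pass (limma adjusted p = 0.0984). Its antisense neighbour CR43481 was at 3.06 and 3.97 FPKM in the mutant-labelled libraries, against 3.75 and 3.62 FPKM in the wild-type libraries.

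The member on 2R, l(2)efl, named for its essential role in the life cycle, was at 18.4 and 25.1 FPKM in the mutant-labelled libraries, against 19.6 and 22.2 FPKM in the wild-type libraries. The wild-type values lay inside the range of the mutant-labelled ones. Its log2 fold change of 0.04 (SE 0.19, limma adjusted p = 0.896) was well within the spread between replicates, and its sign turned under several alternatives, to -0.25 with the length trend removed.

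Hsp67Bc, a partner of the BAG-family cochaperone Starvin in the removal of misfolded proteins, was at 2.84 and 2.05 FPKM in the mutant-labelled libraries, against 3.14 and 11.3 FPKM in the wild-type libraries. The high value belonged to wild type replicate 2, whose interval of 7.94 to 14.6 FPKM lay above that of wild type replicate 1, of 1.32 to 4.96 FPKM. The values in the mutant-labelled libraries rested on an estimated 4 and 3 fragments, those in the wild type on 11.9 and 45.8. The log2 fold change of -1.06 (SE 0.59) did not pass (limma adjusted p = 0.277), and without wild type replicate 2 it was -0.27.

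Hsp22, the member of the mitochondrial matrix, was listed at 0 in both mutant-labelled libraries and in wild type replicate 1, and at 21.7 FPKM in wild type replicate 2, with an interval of 16.1 to 27.3 FPKM. The genotypes are therefore not separated by this gene, and a single library sets its log2 fold change of -2.25 (SE 1.59, limma adjusted p = 0.377). Without wild type replicate 1 the value was -4.50 and past the threshold (limma adjusted p = 0.0423), and without wild type replicate 2 there was nothing to compare. As its whole listed locus is shared with Hsp67Bb, these zeros are not read as absence.

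**Figure D4:**
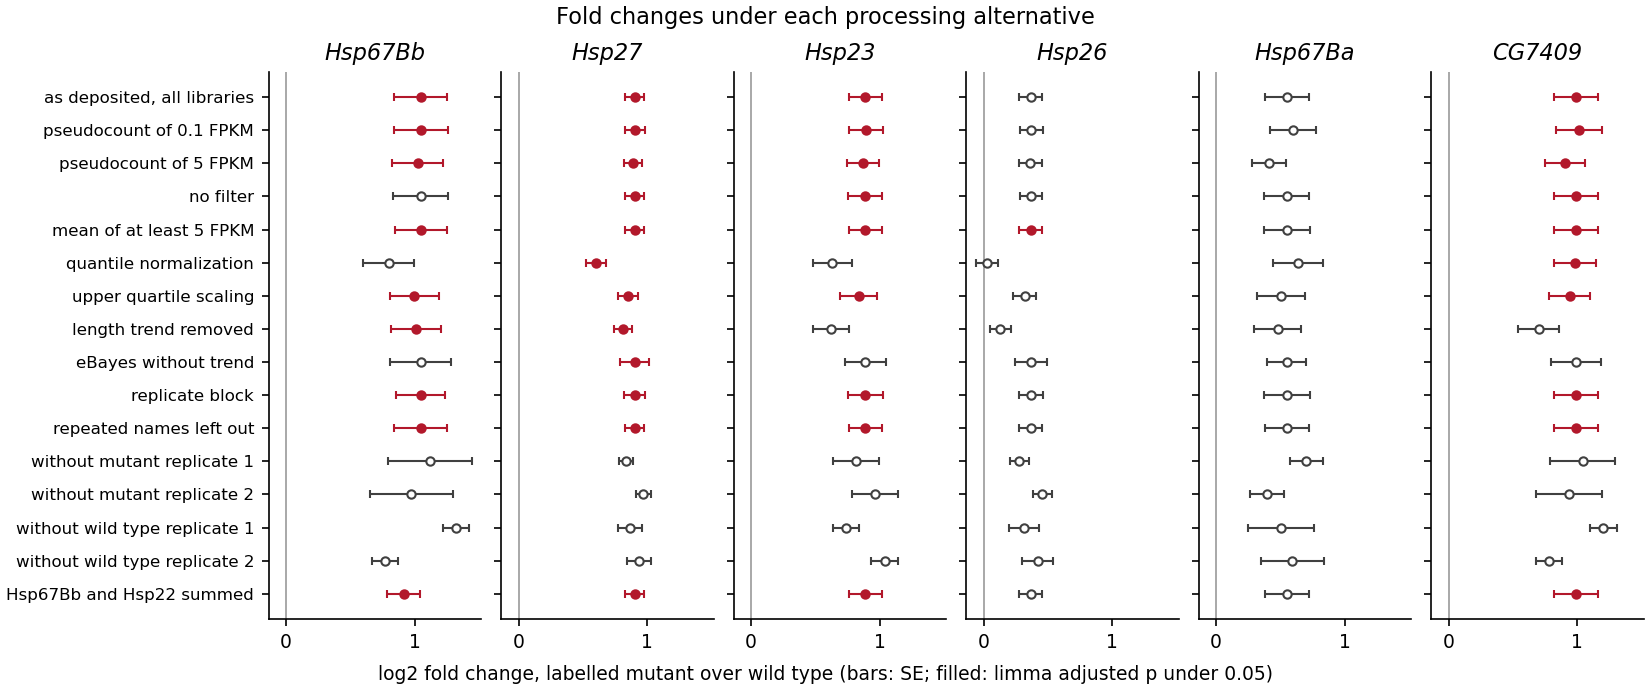
Log2 fold changes (x axis, labelled mutant over wild type, bars give the SE) of 5 members and of CG7409 under each alternative (rows); filled points passed an adjusted p of 0.05 by limma. Every point lies above 0; Hsp26 comes nearest to it, at 0.02 under quantile normalization, and no point is filled where a library was left out.

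The high Hsp22 and Hsp67Bc of wild type replicate 2 were set beside the heat-inducible Hsp70 genes, whose near-identical copies make the level of each uncertain. The 6 Hsp70 genes summed to 1.19 and 1.94 FPKM in the mutant-labelled libraries, against 1.74 and 16.6 FPKM in the wild-type libraries. The estimated fragments of these genes were 6 and 10 in the mutant-labelled libraries, against 22 and 205 in the wild-type libraries. Hsp70Bb, the highest of them, was at 0.603 and 1.37 FPKM in the mutant-labelled libraries, against 0.555 and 6.73 FPKM in the wild-type libraries, while Hsp70Bc showed no such difference. Hsp22 and Hsp67Bc were singled out here because they were high in that library. In proportion to their level, the abundant members showed no step of that size. Hsp23 was at 138 and 170 FPKM in wild type replicates 1 and 2, in FPKM a larger step than that of Hsp22. Its intervals there, of 124 to 151 FPKM and of 154 to 185 FPKM, did not overlap. Hsp26 and Hsp27 were also higher in wild type replicate 2 but differed less, and Hsp67Bb was lower in it. Hsp68, another heat-inducible gene of the Hsp70 family, was at 86.8 and 93.8 FPKM in the mutant-labelled libraries, against 71.0 and 97.5 FPKM in the wild-type libraries.

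**Figure D5:**
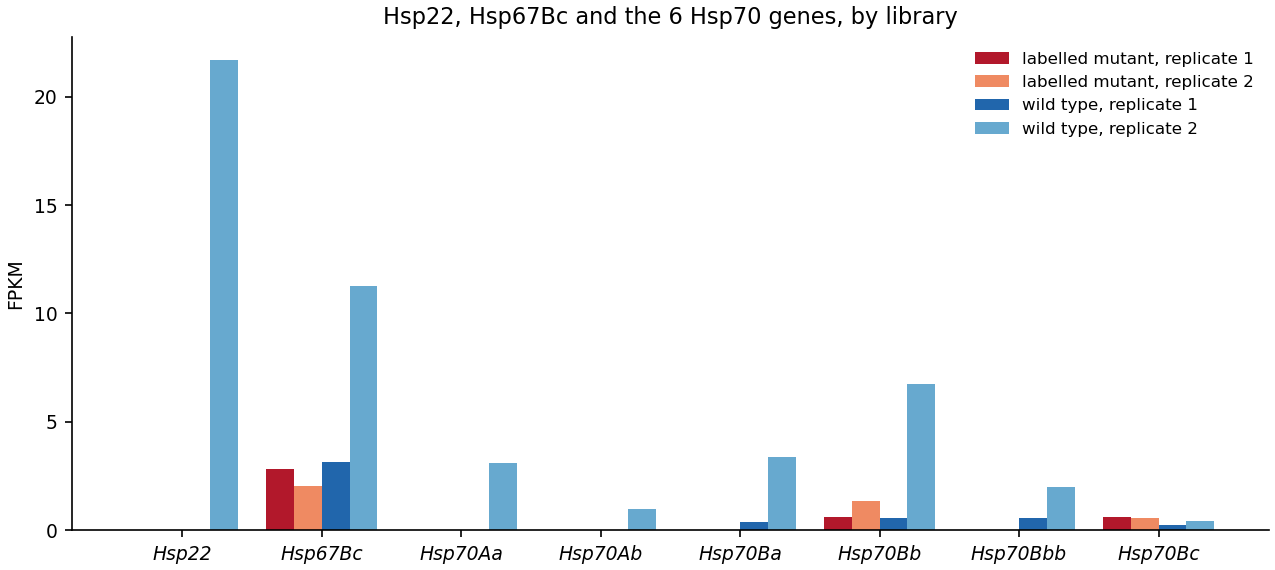
FPKM (y axis, from 0) of Hsp22, Hsp67Bc and the 6 Hsp70 genes in each library (bars). Wild type replicate 2 has the highest bar for every gene but Hsp70Bc.

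Other genes with an alpha-crystallin domain were read for comparison, 4 in number. CG7409 rose, with 57.9 and 62.4 FPKM in the mutant-labelled libraries, against 34.6 and 25.5 FPKM in the wild-type libraries (log2 fold change 0.99, SE 0.17, limma adjusted p = 0.0312). Its call was lost without the trend on length (0.70, limma adjusted p = 0.0633), with eBayes without a trend on level (limma adjusted p = 0.0646) and with any library left out (limma adjusted p of 0.134 to 0.165). CG14207, a relative of the vertebrate HSPB proteins, was at 20.7 and 24.1 FPKM in the mutant-labelled libraries, against 22.5 and 17.7 FPKM in the wild-type libraries, with overlap of the genotypes (log2 fold change 0.15, SE 0.17, limma adjusted p = 0.560). CG4461, which lies between Hsp22 and Hsp26, rested on 1 estimated fragment in each library, and CG13133 was listed at 0 in all 4. Of the 2 that could be tested, 1 was thus called higher, beside 11.4% of all tested genes. Among tested genes of over 500 and up to 1000 bases, where CG7409 falls with 760, the share was 22.2%.

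The other genes beside the cluster gave a different picture from its abundant members. Klp67A, a kinesin of the mitotic and meiotic spindle, was lower, with 42.1 and 41.0 FPKM in the mutant-labelled libraries, against 54.3 and 55.8 FPKM in the wild-type libraries (log2 fold change -0.40, SE 0.08, limma adjusted p = 0.0442). That call was lost under quantile normalization (limma adjusted p = 0.0517), without the trend on length (limma adjusted p = 0.128), with eBayes without a trend on level (limma adjusted p = 0.0882), with the replicate number as a block (limma adjusted p = 0.0854) and with any library left out (limma adjusted p of 0.0914 to 0.221). Fdxh, which encodes a ferredoxin, CG4452 and CG4080 did not pass, with log2 fold changes of -0.26, 0.16 and -0.30. Hsp67Bb, near the left end, and Hsp27, at the right end, were both higher, while Hsp67Bc beside Hsp67Bb was not. Klp67A, CG4080, CG4452 and Fdxh stood below the top 10% by level, with 56.3% to 72.8% of tested genes at or below them. Klp67A and CG4080 have longest transcripts of 2994 and 3453 bases. Over tested genes of over 2000 and up to 5000 bases the median log2 fold change was -0.14. The difference between the members and these neighbours, and the part of level and length in it, was not tested.

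Genes that act with small heat shock proteins were read as a list of 20, from Hsf and the Hsp70 and Hsp90 genes to co-chaperones. Of the 15 that could be tested, 1 fell, none rose and 14 did not pass, beside 8.67% of all tested genes called lower and 11.4% called higher. Their median log2 fold change was -0.21, beside -0.01 over all genes. At an unadjusted p under 0.05 by limma the counts were 4 lower and 0 higher, beside 17.3% lower and 19.7% higher over all genes. Hsp83, the cytosolic Hsp90, was the gene that fell, to 543 and 543 FPKM in the mutant-labelled libraries, against 684 and 676 FPKM in the wild-type libraries (log2 fold change -0.32, SE 0.05, limma adjusted p = 0.0202). That call was lost without the trend on length (-0.19, limma adjusted p = 0.0852), with eBayes without a trend on level (limma adjusted p = 0.116) and with any library left out (limma adjusted p of 0.0794 to 0.172). Hsf was at 16.3 and 20.6 FPKM in the mutant-labelled libraries, against 19.7 and 23.3 FPKM in the wild-type libraries, with overlap (log2 fold change -0.22, SE 0.17, limma adjusted p = 0.419). Starvin (stv) was at 17.0 and 19.8 FPKM in the mutant-labelled libraries, against 18.3 and 25.2 FPKM in the wild-type libraries, also with overlap (log2 fold change -0.22, SE 0.20, limma adjusted p = 0.482). DnaJ-1, an Hsp40 gene, was at 133 and 145 FPKM in the mutant-labelled libraries, against 172 and 193 FPKM in the wild-type libraries, and did not pass (log2 fold change -0.40, SE 0.09, limma adjusted p = 0.0568). It passed with the replicate number as a block (limma adjusted p = 0.0453), with genes under a mean of 5 FPKM left out (limma adjusted p = 0.0448) and under quantile normalization (-0.62, limma adjusted p = 0.0364). Fold changes of the abundant members and of most genes of this list thus had opposite signs, a difference that was not tested. Hsp83, Hsf, stv and DnaJ-1 have longest transcripts of 2161 to 3357 bases, longer than those of the members. Over tested genes of over 2000 and up to 5000 bases the median log2 fold change was -0.14. The part of length was not tested.

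Transcript length and level moved with fold change over the whole table. The longest transcripts of the members have 741 to 1900 bases. The median log2 fold change was 0.26 in the 2125 genes of over 500 and up to 1000 bases. In the 3474 genes of over 1000 and up to 2000 bases it was 0.13. It was -0.14 in the 3464 genes of over 2000 and up to 5000 bases, and -0.46 in the 1003 genes over 5000 bases. The shares called higher were 22.2%, 14.5%, 4.04% and 0.997%. With the length trend removed, 2 members were called, Hsp27 and Hsp67Bb. That trend was fitted on the longest transcript of each gene. For Hsp67Bb this is the one of 1900 bases also listed under Hsp22, while its shortest has 427 bases. Which of its transcripts made up its level is not known, so its value after this removal is uncertain. The germline markers Mst84Dc, Mst87F and ocn were higher in the same libraries as Hsp27, Hsp23 and Hsp67Bb, while bol was lower there, and so was the depth. The part of these in the result was not tested.

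Hsp27 had the highest mean of the members over all 4 libraries, though not over the wild-type ones, and the 3 genes nearest to it over the 4 libraries, by Euclidean distance of log2 FPKM + 1, were CG6661, CG10089 and CG11635, at distances of 0.152, 0.160 and 0.160. CG6661, for one, was at 393 and 386 FPKM in the mutant-labelled libraries, against 215 and 230 FPKM in the wild-type libraries. With 4 libraries this likeness is mostly a likeness of level and of the step between genotypes.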

How the data were processed

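Testes of 2 genotypes were compared, with 2 libraries each grouped by their labels. Libraries were made from 1 µg of total RNA with a TruSeq kit, per the labels' protocols. Alignment and quantification used TopHat and Cufflinks on build dm6, per the submitters' processing notes, which give no version, setting or annotation and do not mention strand. Per the file headers, the authors deposited FPKM and the lower and upper bounds of its confidence interval. The headers do not give the level of that interval, which was taken to be 95%. Rows of a repeated name (380 rows of 145 names) were summed. The fragment number behind a value was estimated by dividing 2 times the FPKM by the upper half-width of its interval and squaring, which takes counting error as the only error. Of rows with a single start identifier and under 15 estimated fragments, 54.4% to 63.1% came within 0.05 of a whole number. Rows with several start identifiers, Hsp26 and Hsp67Bb among them, were not checked. No count model was run.

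The test was limma 3.58.1 (R 4.3.3, lmFit and eBayes with trend) on log2(FPKM + 1). Genes entered with a mean of 1 FPKM or more, and p-values were adjusted by Benjamini-Hochberg over all of them. On this scale the fold changes of low genes come out too small. Alternatives took another pseudocount, filter, scaling or variance model, added a replicate block, removed a length trend by loess, or left out a library. Gene models came from Ensembl release 115 on the same assembly, and listed starts, 1 base lower than in the reference, were raised by 1. No genome sequence was used.

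The members, the gene lists and the tests were chosen with earlier results of these data known. Named were all members, the 4 other alpha-crystallin genes, rows within 5 kb of the cluster or overlapping l(2)efl, up to 4 called genes of the heat shock list with Hsf and stv, the 3 genes nearest in level to the highest member, and Su(var)3-9. Hsp68, DnaJ-1 and the Hsp70 genes were named after their values were seen.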

Additional observations from a re-analysis of the deposited data

How the results depend on the processing

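Of the members, 3 were called higher as deposited, 2 with no filter or with the length trend removed, 4 with a mean of at least 5 FPKM, and 1, Hsp27, under quantile normalization and with eBayes without trend. Leaving out any library left 0 called higher, and the count called lower was 0 in all settings but one, reaching 1 (Hsp22) without wild type replicate 1. Over all genes, 1229 higher and 935 lower became 684 higher with the length trend removed, 494 and 609 with eBayes without trend, 596 lower with the replicate block, and 849 and 982 under quantile normalization; leaving out a library gave 0 to 12 higher and 0 to 251 lower. The replicate block kept the same 3 members called; deviations of same-numbered libraries correlated at -0.0499 across genes, so the number is not shown to pair them. Of the members, only l(2)efl, at 0.04 as deposited, changed sign. It was at -0.0051 under upper quartile scaling, -0.25 with the length trend removed and -0.17 to 0.26 with a library left out. CR43481, at -0.06 as deposited, was at 0.091 under quantile normalization and 0.068 with the length trend removed. Its range was -0.21 to 0.083 with a library left out. With a library left out, CG14207 ran from -0.011 to 0.32, stv from -0.44 to 0.0037 and Hsp68 from -0.11 to 0.34. The cause was not tested. Depth limits the low genes: Hsp67Bc rested on 3 estimated fragments in a library, CG4461 on 1, and Hsp22 was at 0 in 3 libraries.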
